A study of Mus musculus with 16 samples.

Results

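The 6 genes described here are Pax7, Pax3, Six4, Eya1, Eya4 and Sox8, transcription factors and cofactors that mark muscle stem cell (MuSC) and progenitor identity. They were taken by name from a table of 24411 genes, and all 6 passed the filter on low counts in every comparison. The table holds 16 RNA libraries of MuSCs sorted by flow cytometry from hindlimb muscle of C57BL/6 mice. There were 4 libraries each of control (labelled wild type) and TRF2MuSC-cKO MuSCs from uninjured muscle, and 4 of each from muscle at 3 days postinjury (3 DPI) after 10 µl of notexin, a snake toxin that destroys myofibers, was injected into the tibialis anterior. In TRF2MuSC-cKO mice, floxed TRF2 is deleted by the tamoxifen-induced Pax7CreERT2 driver, tamoxifen having been started in young adults. Deletion therefore depends on activity of the Pax7 locus, and Pax7 is itself 1 of the 6 genes. Whether the control mice carried the driver or the floxed allele and whether animals were pooled are not given in the sources used here. The sort kept cells positive for α7-integrin with VCAM or CD34 and negative for CD45, CD31, CD11b and Sca1. The p-values below measure the spread between libraries.

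PAX7 is the paired-box and homeodomain factor that specifies and maintains satellite cells, the quiescent stem cells under the basal lamina of the myofiber. PAX3 is its close paralog, which acts in embryonic muscle progenitors and in some adult MuSCs. Homeodomain proteins of the sine oculis family, such as SIX4, bind MEF3 sites in muscle genes and are activated by EYA proteins such as EYA1 and EYA4, which carry a phosphatase domain and do not bind DNA themselves. SOX8 belongs to the SoxE group of HMG-box factors together with SOX9 and SOX10, is found in satellite cells, and is known to restrain myoblast differentiation.

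Library totals ran from 620506 to 1351130 estimated counts, so a count of 3 corresponded to 2.5 to 4.46 CPM (counts scaled to a common library total). Values in CPM carry TMM scaling (trimmed mean of M values) over all 16 libraries, so each is a level relative to the rest of its library. The 3 DPI library labelled TRF2MuSC-cKO replicate 3 stood apart, with a count for 15389 genes against at least 19996 in each other library, and fold changes of the members that rest on it are given with and without it. Terf2, the gene encoding TRF2, was lower in each uninjured TRF2MuSC-cKO library (26.8 to 58.8 CPM) than in each control library (64.8 to 91.3 CPM), with a log2 fold change of -0.62 (SE 0.27, adjusted p = 0.199, edgeR quasi-likelihood test). At 3 DPI, Terf2 was at 34.2 to 48.8 CPM in control and 20.7 to 84.3 CPM in the libraries labelled TRF2MuSC-cKO (log2 fold change 0.44, adjusted p = 0.755), so these libraries go by their label. Reads of a recombined allele are not told apart from others in the gene count.

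All 6 genes lie on the minus strand of GRCm38 (GENCODE M21). Pax7 is at chr4:139737062-139833528, Pax3 at chr1:78101267-78197134, Six4 at chr12:73099609-73113456, Eya1 at chr1:14168954-14310235, Eya4 at chr10:23102963-23350786 and Sox8 at chr17:25565892-25570686. The count of each gene sums its transcripts, from 2 (Pax7 and Six4) to 9 (Eya1). An exon of the antisense RNA 2810468N07Rik overlaps a Sox8 exon. Its own count was 22 or less in every library, at 6.8 to 18.9 CPM in uninjured control and 6 to 11.6 CPM in uninjured TRF2MuSC-cKO libraries. The library kit keeps strand, but the strand setting of the counting is not given, so reads of Sox8 and the antisense RNA cannot be told apart. At 3 DPI the antisense RNA reached 16.4 CPM in control and 23.0 CPM in the libraries labelled TRF2MuSC-cKO, where in replicate 4 it had 21 counts, as many as Sox8.

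The sequences before the transcription start are shown because 4 of the 6 genes, Pax7, Eya1, Eya4 and Sox8, were called lower after injury in control MuSCs, and because TRF2 is known to bind the telomeric repeat TTAGGG and G-rich DNA. RefSeq promoters of GRCm38.p6 were matched for Pax7, Six4, Eya4 and Sox8. The 250 bases before the listed start were searched on both strands. The upstream window of Sox8, the member that differed most between genotypes, runs from chr17:25570687-25570936, and capitals mark each run of at least 3 G or 3 C.
Sox8 upstream: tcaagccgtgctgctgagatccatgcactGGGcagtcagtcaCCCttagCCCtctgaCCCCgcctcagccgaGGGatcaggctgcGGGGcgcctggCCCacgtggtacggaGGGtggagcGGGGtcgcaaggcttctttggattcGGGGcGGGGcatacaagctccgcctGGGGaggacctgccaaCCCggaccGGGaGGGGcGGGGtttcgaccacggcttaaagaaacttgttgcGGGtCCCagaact
This window holds 18 such runs, more than 93.6% of the 27025 promoter windows of the same length, and its GC content is 65.6%. The windows of Pax7, Eya4 and Six4 hold 15, 14 and 12 runs. For these 3 genes the annotated exons of GENCODE reach into the window, so only matched sites are shown (for Pax7 1 of its 8 matches, counted with overlaps and lying on both strands), 5′ to 3′ on the strand of the gene. Capitals mark the runs of G or C of a match to 4 GGG triplets separated by 1 to 7 bases of any kind, the pattern of a putative G-quadruplex, and the MEF3 match.
Pax7, chr4:139833033-139833053: GGGGGGGtgcagaaGGGaGGG
Six4, chr12:73113297-73113313: GGGaGGGaGGGagtGGG
Eya4, chr10:23349948-23349969: CCCaCCCCgCCCtgtttctCCC
Six4 MEF3, chr12:73113326-73113352: gcctgggggaAACCTGAtcggccagat
The 4-triplet pattern was found in the windows of Pax7, Six4 and Eya4 and not in that of Sox8, and 16.2% of all windows hold it. The MEF3 sequence TCAGGTT was found in Six4 on the strand opposite to the gene, and 3.49% of all windows hold it. TTAGGG (9.25% of windows) and TAAT followed after 3 bases of any kind by ATTA, a palindrome bound by paired-type homeodomains (0.47%), had no match in the 4 windows. A match is a description of the sequence only.

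The genes differed widely in level. Levels of different genes were compared per transcript length, as TPM (transcript abundance scaled to a common total) derived from the rescaled table that the authors deposited. In uninjured control MuSCs, Pax7 stood at 630.3 ± 128 TPM (SD, n = 4), above every library's level of Sox8, at 167 ± 27.6 TPM. Eya1 (45.1 ± 3.27 TPM) and Eya4 (39.8 ± 10.3 TPM) came next and overlapped each other. Six4 (19.9 ± 5.0 TPM) and Pax3 (16.6 ± 3.20 TPM) were the lowest and also overlapped, although Six4 was above Pax3 in each of the 4 libraries. Pax7 was therefore among the most abundant transcripts, higher than 99.4% of all genes by its group mean, and Sox8 was higher than 97.6%. Pax3 was higher than 57% of all genes.

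The order below Pax7 was not kept in the other groups. In uninjured TRF2MuSC-cKO MuSCs, Pax7 (506 ± 35.8 TPM) stayed above every other member, and the ranges of the next genes in order, Sox8 (40.0 ± 22.3 TPM), Eya4 (32.8 ± 13.4 TPM), Six4 (30.6 ± 9.60 TPM), Pax3 (28.4 ± 3.53 TPM) and Eya1 (27.9 ± 11.3 TPM), each overlapped with their neighbour. At 3 DPI in control MuSCs, Pax7 was at 81.6 ± 11.5 TPM and Sox8 at 37.0 ± 16.4 TPM, with no overlap between them. Olfactory receptor genes, most of which have no known role in MuSCs, were examined after the data had been seen and give a level to read these against. Over 1107 such genes, the median of the group means was 4.76 TPM in uninjured control, 8.64 TPM in uninjured TRF2MuSC-cKO, 6.56 TPM in control at 3 DPI and 6.77 TPM in the 3 DPI libraries labelled TRF2MuSC-cKO. Their 95th percentile was 12.6, 22.1, 14.9 and 30.6 TPM in the same order. The means of all 6 members were above that percentile in both uninjured groups. Eya4 at 3 DPI in control (14.1 ± 2.21 TPM) was below it, and so were all members other than Pax7 in the 3 DPI libraries labelled TRF2MuSC-cKO, where Pax7 was at 55.2 ± 34.6 TPM. At 3 DPI these members were thus measured near the level of a gene set mostly without a known role in MuSCs.

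**Figure D1:**
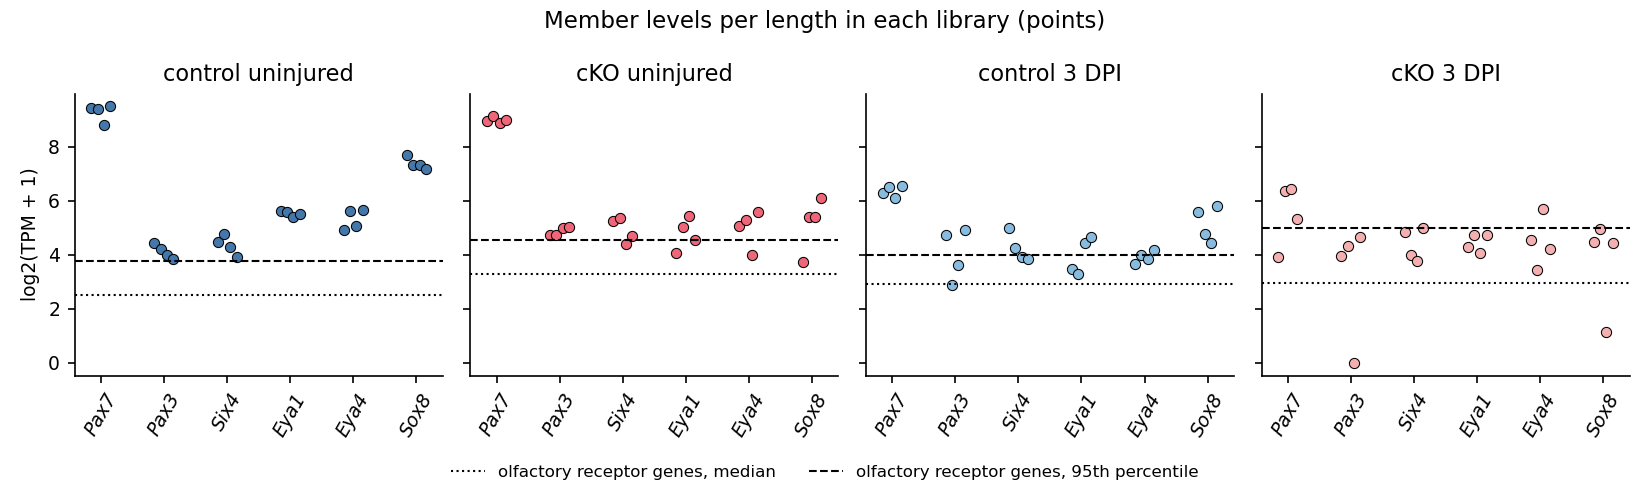
Levels of the 6 genes per transcript length, as log2(TPM + 1) on the vertical axis, with 1 point for each of 4 libraries in each group panel. Dotted and dashed lines mark the median and the 95th percentile of olfactory receptor gene means (4.76 and 12.6 TPM in uninjured control MuSCs). Pax7 lies far above the lines in all groups but the 3 DPI libraries labelled TRF2MuSC-cKO.

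The first comparison asked how loss of TRF2 in MuSCs at rest was accompanied by changes in these identity factors. Sox8 was much lower in uninjured TRF2MuSC-cKO than in control MuSCs, and it was the only member called. Genes were called at an adjusted p under 0.02 and a fold change over 1.5, the first taken from the study's methods and the second from the genes it chose to display. At that call 1 of 6 members was lower, beside 2.63% of the 14048 genes tested, and 0 of 6 were higher, beside 0.584%. Pax7, Eya1 and Eya4 had estimates below 0, and Pax3 and Six4 had estimates above 0, none of them past the call. The median log2 fold change of the 6 members was -0.50, and that of all genes tested was 0.06.

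Sox8 stood at 270, 198, 190 and 198 CPM in the control libraries. It stood at 12.0, 44.1, 43.0 and 72.3 CPM in the TRF2MuSC-cKO libraries. The lowest control library was thus above the highest TRF2MuSC-cKO library by a wide margin. The mean fell from 214 ± 37.8 CPM to 42.9 ± 24.7 CPM (SD, n = 4 each), to 20% of control. The log2 fold change was -2.25 (SE 0.28, 95% interval -2.83 to -1.68, adjusted p = 3.6e-06, edgeR quasi-likelihood test). By fold it ranked 4 from the lowest among all genes tested. The counts behind it were 923 in control and 137 in TRF2MuSC-cKO libraries. In the rescaled table the fold was the same size (-2.29) but the adjusted p was 0.0408, above the threshold. The adjusted p ran from 5.4e-17 to 0.0408 over 18 alternatives, 17 of which called the gene lower.

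Pax7 stood at 1304, 1217, 751 and 1408 CPM in control libraries. In TRF2MuSC-cKO libraries it stood at 702, 871, 720.1 and 781 CPM. Control replicate 3 lay within the TRF2MuSC-cKO range, while the other control libraries lay above it. The means were 1170 ± 289.9 CPM and 768 ± 76.0 CPM (SD, n = 4 each), and the log2 fold change was -0.53 (SE 0.20, 95% interval -0.92 to -0.13, adjusted p = 0.111, edgeR quasi-likelihood test), which did not pass. The gene was called lower without control replicate 3 (log2 fold change -0.71, adjusted p = 0.011) and with limma's robust fit, the kind of test the study used (log2 fold change -0.61, adjusted p = 0.0178). Over its 18 alternatives the adjusted p ran from 0.011 to 0.471, and these 2 were the ones that called it.

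Pax3, the paralog, was at 31.9, 26.9, 22.7 and 21.2 CPM in control libraries. It was at 32.4, 35.9, 37.3 and 38.9 CPM in TRF2MuSC-cKO libraries. Each TRF2MuSC-cKO library was above each control library, by a small margin, which 3.96% of the genes tested also showed in that direction. The log2 fold change of 0.56 (SE 0.34, adjusted p = 0.368) was not called. The counts were low, 111 summed over control and 117 over TRF2MuSC-cKO libraries. Counting error may add to the spread, and its part was not tested.

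Eya1 was at 90.4, 86.0, 70.5 and 88.7 CPM in control libraries. In TRF2MuSC-cKO libraries it was at 22.8, 50.2, 64.6 and 34.8 CPM. The groups did not overlap, as for Sox8, which was the case in the lower direction for 2 of 6 members beside 8.15% of all genes tested. The mean of Eya1 in TRF2MuSC-cKO was 51.4% of that in control, with a log2 fold change of -0.89 (SE 0.28, 95% interval -1.45 to -0.33, adjusted p = 0.0502, edgeR quasi-likelihood test), which was not called in this or any of its 18 alternatives. Eya4 was at 52.5, 84.3, 53.4 and 91.4 CPM in control and 44.3, 56.4, 21.5 and 69.7 CPM in TRF2MuSC-cKO libraries. Its groups overlapped, and its log2 fold change of -0.47 (SE 0.29, adjusted p = 0.379) did not pass. Six4 levels of 36.0 to 61.7 CPM in control libraries overlapped with those of 40.2 to 82.0 CPM in TRF2MuSC-cKO libraries, and its log2 fold change of 0.43 (SE 0.28, adjusted p = 0.416) did not pass.

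Markers of other cells and of MuSCs moved with genotype in uninjured muscle. Of 14 MuSC markers, Pax7 among them, 10 were called lower, beside 2.63% of all genes tested, and their summed level was 3990 to 6680 CPM in control and 2630 to 3360 CPM in TRF2MuSC-cKO libraries. Of 5 markers of fibroadipogenic progenitors tested, Dcn was called higher and Dpt lower. Of 6 markers of mural cells tested, Rgs5 and Cspg4 were called higher and 0 lower, while 2 of the 6 had estimates below 0. Over all genes tested, 0.584% were called higher and 2.63% lower. The summed levels of these lists overlapped between genotypes (299 to 450 against 257 to 349 CPM for 8 fibroadipogenic genes and 771 to 1110 against 687 to 1680 CPM for 7 mural genes). The fibroadipogenic sum holds opposite moves. The mean of Dpt was 256 CPM in control and 77.8 CPM in TRF2MuSC-cKO. Means were higher in TRF2MuSC-cKO for Pdgfra (33.4 and 67.3 CPM), Dcn (49.6 and 108.6 CPM), Pi16 (7.72 and 17.6 CPM), Lum, Ly6a and Clec3b. None of 7 endothelial, 6 immune, 7 Schwann cell (Sox10 among them), 4 myofiber or 3 tenocyte markers tested was called, and no marker of any list was at 0 in a whole group. The immune sum was 55.4 to 107 CPM in control and 104 to 171 CPM in TRF2MuSC-cKO libraries. In the same order, the Schwann cell sum was 406 to 493 and 468 to 661 CPM, and the endothelial sum 408 to 581 and 291 to 496 CPM. The part of these markers in the results was not tested, and in bulk RNA fewer cells of a type cannot be told apart from less RNA per cell. Sample descriptions also carry a code whose meaning is not given. No code is shared by control and TRF2MuSC-cKO libraries from uninjured muscle, so code and genotype cannot be told apart there.

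**Figure D2:**
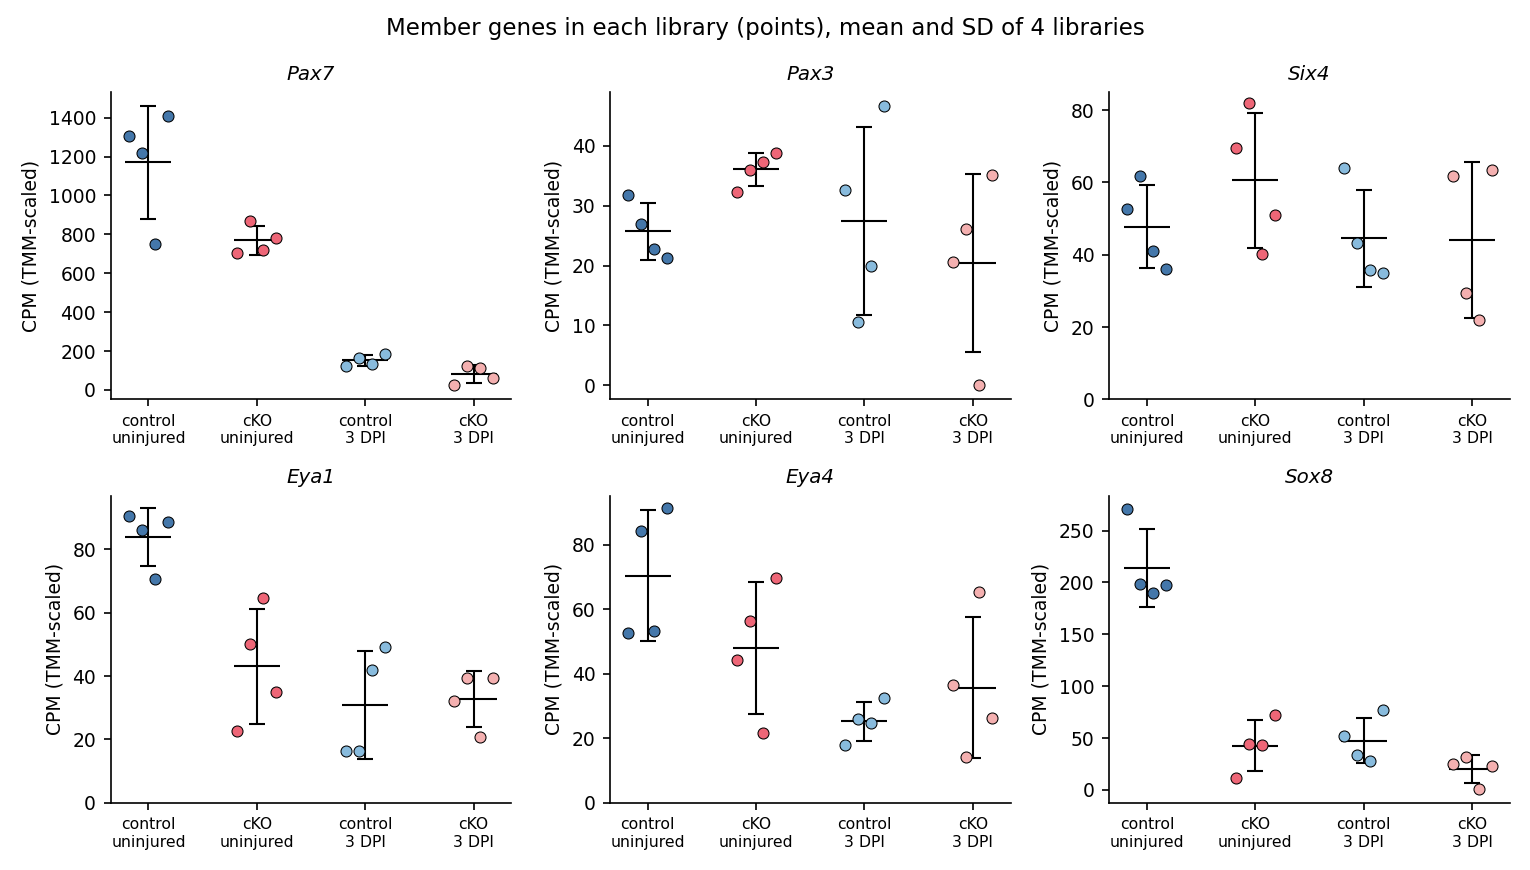
Each of the 6 genes in every library (points) with the mean (bar) and SD of 4 libraries, in TMM-scaled CPM on the vertical axis and by group on the horizontal axis. Sox8 in uninjured control MuSCs (190 to 270 CPM) lies above all other groups, and Pax7 separates the uninjured from the 3 DPI libraries.

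The next comparison asked whether the genotypes differed 3 days after injury. None of the 6 members was called, and no gene of the 14559 tested was called in either direction (0% lower, 0% higher). Without the library that stood apart, 13 genes were called lower and 3 higher, with no member among them. At an unadjusted p under 0.05, 3.58% of the genes tested were lower and 5.78% were higher, and none of the members was among them. DESeq2 called 17 genes lower and 5 higher, and limma's robust fit called 1 higher, with no member among them. Of the members, DESeq2 gave an adjusted p for Pax7 alone (0.435). The control and labelled TRF2MuSC-cKO libraries overlapped for every member, while 5.75% of the genes tested had no overlap in the lower and 2.53% in the higher direction.

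Pax7 was at 123, 165, 132 and 187 CPM in control libraries at 3 DPI. It was at 24.04, 124, 115 and 62.4 CPM in those labelled TRF2MuSC-cKO. Of these libraries, 1 reached the control range. The log2 fold change was -0.76 (SE 0.42, 95% interval -1.67 to 0.15, adjusted p = 0.59), and -1.02 (adjusted p = 0.266) without the library that stood apart. Leaving out each replicate in turn gave -1.05 to -0.47 for Pax7, the latter without the library at 24.04 CPM. Sox8 was at 52.0, 33.7, 27.9 and 76.6 CPM in control and 25.2, 31.6, 1.15 and 23.0 CPM in the libraries labelled TRF2MuSC-cKO, with overlap. The value of 1.15 CPM was a count of 1 in the library that stood apart. The log2 fold change of Sox8 was -1.13 (SE 0.65, 95% interval -2.54 to 0.28, adjusted p = 0.609, edgeR quasi-likelihood test), and -0.76 (adjusted p = 0.434) without that library. These intervals include both no difference and differences of the size seen in uninjured muscle.

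Pax3 at 3 DPI was at 32.7, 10.6, 19.9 and 46.7 CPM in control and 20.6, 26.2, 0 and 35.0 CPM in the libraries labelled TRF2MuSC-cKO. The 0 was in the library that stood apart, where the absence of a count allows up to 3 counts, or 3.44 CPM, by counting error alone. The log2 fold change of -0.32 (SE 0.81) turned to 0.07 without it. Eya4 was at 17.8, 26.0, 24.9 and 32.5 CPM in control and 36.6, 14.2, 65.4 and 26.3 CPM in the libraries labelled TRF2MuSC-cKO. Its highest value was in the library that stood apart, and its log2 fold change of 0.62 (SE 0.51) was 0.08 without it. Eya1 had a log2 fold change of 0.20 (SE 0.48, adjusted p = 0.915) and of 0.32 without that library. In the 4 libraries of the description code that both genotypes share at 3 DPI, JH133, it was 1.15 (SE 0.53, adjusted p = 0.845), and over all 18 alternatives its adjusted p ran from 0.737 to 0.999. Six4 had a log2 fold change of 0.08 (SE 0.43, adjusted p = 0.965), and of 0.30 without the library that stood apart.

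Whether the genotype effect itself differed between uninjured and injured muscle was tested as an interaction over all 16 libraries. None of the members was called, beside 0.0178% of the 16822 genes tested called lower and 0% called higher. These were 3 lower genes. Leaving out a replicate gave 1 to 9 lower and 0 to 4 higher genes, the most without the library that stood apart, with no member among them. At an unadjusted p under 0.05, 365 genes (2.17%) were lower and 601 (3.57%) higher, and DESeq2 called 15 lower and 9 higher. The robust fit of limma called 51 lower and 28 higher, and no member was among the calls of any of these tools, though DESeq2 gave no adjusted p for Pax3. Eya1 had an interaction of 1.16 on the log2 scale (SE 0.55, unadjusted p = 0.0448, adjusted p = 0.858, edgeR quasi-likelihood test), the only member under 0.05 before adjustment. The interactions of Sox8 (1.20, SE 0.70, adjusted p = 0.906) and Eya4 (1.15, SE 0.59, adjusted p = 0.88) did not pass, and that of Pax7 was -0.16 (SE 0.45, adjusted p = 0.984). Without the library that stood apart the interaction was 1.48 for Sox8, 1.18 for Eya1, 0.54 for Eya4 and -0.51 for Pax7, none of them called. Those of Pax3 (-0.79, SE 0.82) and Six4 (-0.24, SE 0.52) were -0.50 and -0.13 without it. The call of Sox8 in uninjured muscle and the absence of a call at 3 DPI therefore do not show a different genotype effect.

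The comparison of 3 DPI with uninjured muscle asked how the identity factors changed when control MuSCs were taken from regenerating muscle. Pax7, Sox8, Eya4 and Eya1 fell, and Pax3 and Six4 were not called. These 4 of 6 members called lower stand beside 9.46% of the 15356 genes tested, and 0 of 6 were called higher beside 10.8%. The same 4 did not overlap between uninjured and injured libraries, which 11.4% of all genes tested also showed in the lower direction. The median log2 fold change was -1.44 over the members and 0.07 over all genes tested.

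Pax7 fell from 751 to 1408 CPM in uninjured control libraries to 123 to 187 CPM at 3 DPI, to 13% of its uninjured mean. The log2 fold change was -2.94 (SE 0.21, 95% interval -3.37 to -2.52, adjusted p = 3.9e-15, edgeR quasi-likelihood test). By fold it ranked 22 from the lowest of all genes tested. Sox8 fell from 190 to 270 CPM to 27.9 to 76.6 CPM, to 22.2% of its uninjured mean, with a log2 fold change of -2.17 (SE 0.24, adjusted p = 1.0e-09). Both falls were called under each alternative that kept at least 2 libraries in each group.

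Of the EYA cofactors, Eya1 and Eya4 fell. Eya4 fell from 70.4 ± 20.4 CPM to 25.3 ± 6.0 CPM (SD, n = 4 each), with a log2 fold change of -1.46 (SE 0.29, adjusted p = 8.4e-05, edgeR quasi-likelihood test). Eya1 was at 16.3, 16.4, 41.8 and 49.2 CPM at 3 DPI, below the lowest uninjured library at 70.5 CPM. Its log2 fold change was -1.41 (SE 0.29, adjusted p = 1.3e-04). In the 3 libraries that share the description code JH140 (1 uninjured, 2 at 3 DPI), the log2 fold changes were -3.25 for Pax7, -2.01 for Sox8, -1.78 for Eya4 and -1.07 for Eya1, given as values since 1 group is a single library. Over the alternatives that kept at least 2 libraries in each group, the adjusted p of Eya1 ran from 1.6e-05 to 0.0141. Six4, which the EYA proteins serve as cofactors, stayed at 35.0 to 63.9 CPM at 3 DPI against 36.0 to 61.7 CPM in uninjured muscle (log2 fold change -0.13, SE 0.29, 95% interval -0.71 to 0.44). Pax3 had a mean of 27.5 ± 15.7 CPM at 3 DPI and 25.7 ± 4.77 CPM in uninjured muscle (log2 fold change 0.08, SE 0.38, 95% interval -0.67 to 0.84). The interval of each leaves room for changes of over 1.5-fold, so these genes are not shown to be unchanged.

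**Figure D3:**
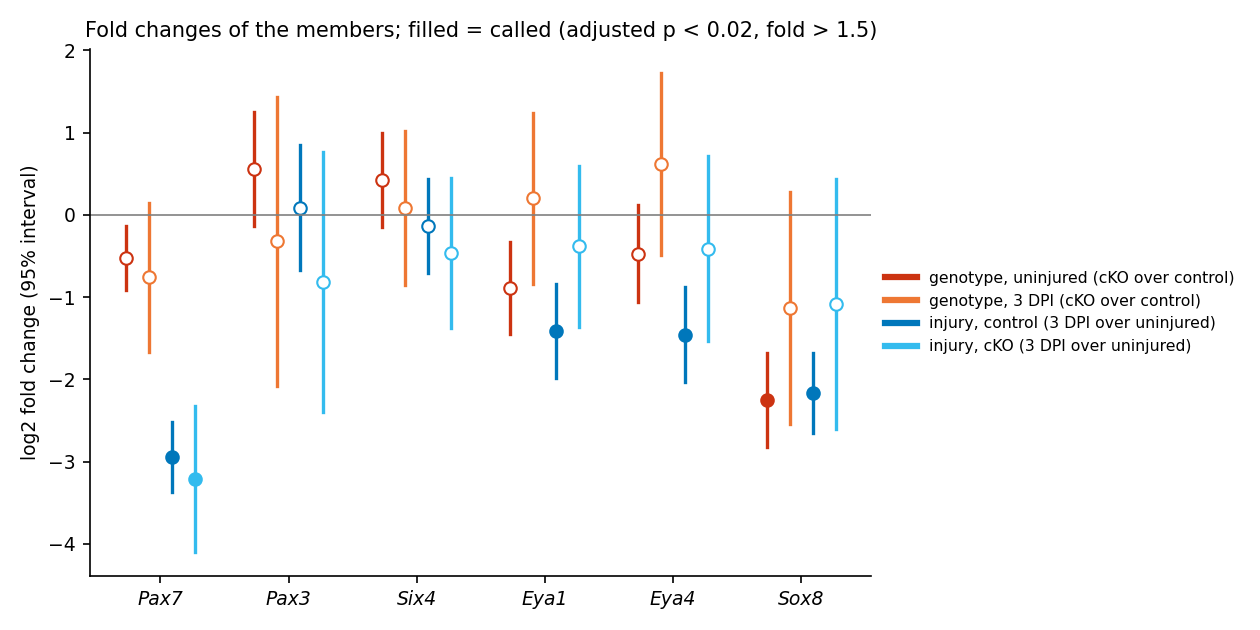
Log2 fold change (vertical axis) of each gene in the 4 comparisons, with 95% intervals from the edgeR quasi-likelihood test. Filled points were called. Pax7 lies near -3 in both injury comparisons, and Sox8 near -2 in uninjured TRF2MuSC-cKO MuSCs and in injured control MuSCs.

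In TRF2MuSC-cKO libraries the same comparison called Pax7 alone. This 1 of 6 members called lower stands beside 1.61% of the 14578 genes tested, and 0 of 6 were called higher beside 2.43%. Pax7 was at 702 to 871 CPM in uninjured muscle and at 24.04 to 124 CPM at 3 DPI, with no overlap, which 7.76% of all genes tested also showed in the lower direction. Its log2 fold change was -3.21 (SE 0.41, 95% interval -4.10 to -2.32, adjusted p = 2.3e-04, edgeR quasi-likelihood test), and -3.42 (adjusted p = 8.4e-07) without the library that stood apart. All 6 estimates were below 0, as were 49.6% of those of all genes. Sox8 was at 12.0 to 72.3 CPM in uninjured muscle and 1.15 to 31.6 CPM at 3 DPI, a log2 fold change of -1.08 (SE 0.71, adjusted p = 0.527) that became -0.66 without the library that stood apart. Leaving out each replicate in turn gave -1.41 to -0.66 for Sox8, and the 3 libraries of code JH139 (1 uninjured, 2 at 3 DPI) gave -2.62, a value with a single library in 1 group. Pax3 (-0.82, SE 0.74), Six4 (-0.47, SE 0.43), Eya4 (-0.41, SE 0.53) and Eya1 (-0.38, SE 0.45) overlapped between the groups. Without the library that stood apart, the log2 fold changes were -0.38 for Pax3, -0.22 for Six4, -0.89 for Eya4 and -0.20 for Eya1, none of them called. The control and TRF2MuSC-cKO injury comparisons have no library in common, and their difference is the interaction given above, in which none of the members was called.

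Markers of other cells moved with injury. In control MuSCs all 8 immune markers were called higher, beside 10.8% of all genes tested, and their sum rose from 55.4 to 107 CPM to 4270 to 5750 CPM. In the TRF2MuSC-cKO comparison 7 of 8 were called higher, beside 2.43%, and the sum went from 104 to 171 CPM to 1730 to 5100 CPM. Among those called in both were Ptprc (log2 fold change 4.09 in control) and Itgam (4.75), which encode CD45 and CD11b, proteins the sort selected against. Of 8 fibroadipogenic markers in control MuSCs, 4 were called higher, namely Pdgfra, Dcn, Lum and Ly6a (log2 fold change 1.92), which encodes Sca1, also selected against, and Dpt was called lower. Their sum of 337 to 526 CPM at 3 DPI overlapped with the 299 to 450 CPM of uninjured muscle. Within it the mean of Dpt fell from 256 to 58.3 CPM. The means of Pdgfra (33.4 to 107.9 CPM), Dcn (49.6 to 151.1 CPM), Lum (9.66 to 30.25 CPM) and Ly6a (8.87 to 33.6 CPM) rose. Of the other lists in control MuSCs, 1 of 5 tenocyte markers (Thbs4) and 1 of 7 myofiber markers (Ckm) were called higher, 1 of 8 endothelial and 1 of 7 mural markers lower, and none of 7 Schwann cell markers. In the TRF2MuSC-cKO comparison no marker of these 6 lists was called. The tenocyte sum there was 235 to 268 CPM in uninjured and 348 to 512 CPM in 3 DPI libraries, without overlap. In control MuSCs the myofiber sum was 166 to 193 CPM in uninjured and 197 to 278 CPM in 3 DPI libraries, also without overlap. The sum of the 14 MuSC markers fell to 1730 to 2340 CPM in control and 882 to 1370 CPM in the labelled TRF2MuSC-cKO libraries at 3 DPI. Of these 14, Pax7 among them, 11 were called lower and 2 higher after injury in control, beside 9.46% and 10.8% of all genes tested. In the TRF2MuSC-cKO comparison 8 were called lower and 1 higher, beside 1.61% and 2.43%. The part of these markers in the falls of Pax7, Sox8, Eya1 and Eya4 was not tested.

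Pax3, Eya1, Eya4 and Sox8 were also set against their closest relatives, each as its share of the summed TPM, which does not depend on the scaling of libraries. In all, 20 differences in 5 shares, 4 of which are described, were tested by exact permutation of the group means (two-sided), for which 4 against 4 libraries allow no p below 0.0286. None passed after Benjamini-Hochberg adjustment, and the smallest adjusted p was 0.0952, so the shares are given as values.

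Sox8 made up 73.2 ± 9.53% of Sox8, Sox9 and Sox10 in uninjured control MuSCs and 27.8 ± 12.97% in uninjured TRF2MuSC-cKO MuSCs (SD, n = 4 each). Control libraries held shares of 62.0 to 85.3% and TRF2MuSC-cKO libraries shares of 9.89 to 40.8%, without overlap (exact permutation p = 0.0286, adjusted p = 0.0952). Sox9 (log2 fold change 0.51) and Sox10 (0.49), which act in cartilage and in neural crest and glia, were not called between these groups. At 3 DPI the Sox8 share was 41.9 ± 11.7% in control and 19.2 ± 12.6% in the libraries labelled TRF2MuSC-cKO, with overlap.

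Pax3 made up 2.63 ± 0.60% of Pax3 and Pax7 in uninjured control and 5.34 ± 0.87% in uninjured TRF2MuSC-cKO MuSCs, without overlap (exact permutation p = 0.0286, adjusted p = 0.0952). At 3 DPI its share was 24.6, 6.65, 14.3 and 23.9% in control libraries, above all uninjured control libraries. In the 3 DPI libraries labelled TRF2MuSC-cKO it was 51.1, 18.9, 0 and 38.3%. Pax3 itself was not called in any comparison.

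Eya1 made up 34.5 ± 8.94% and Eya4 29.4 ± 5.37% of the 4 Eya genes in uninjured control MuSCs. At 3 DPI in control they made up 17.3 ± 6.64% and 15.8 ± 1.87%, each without overlap with uninjured muscle (exact permutation p = 0.0286 and adjusted p = 0.0952 for each).

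**Figure D4:**
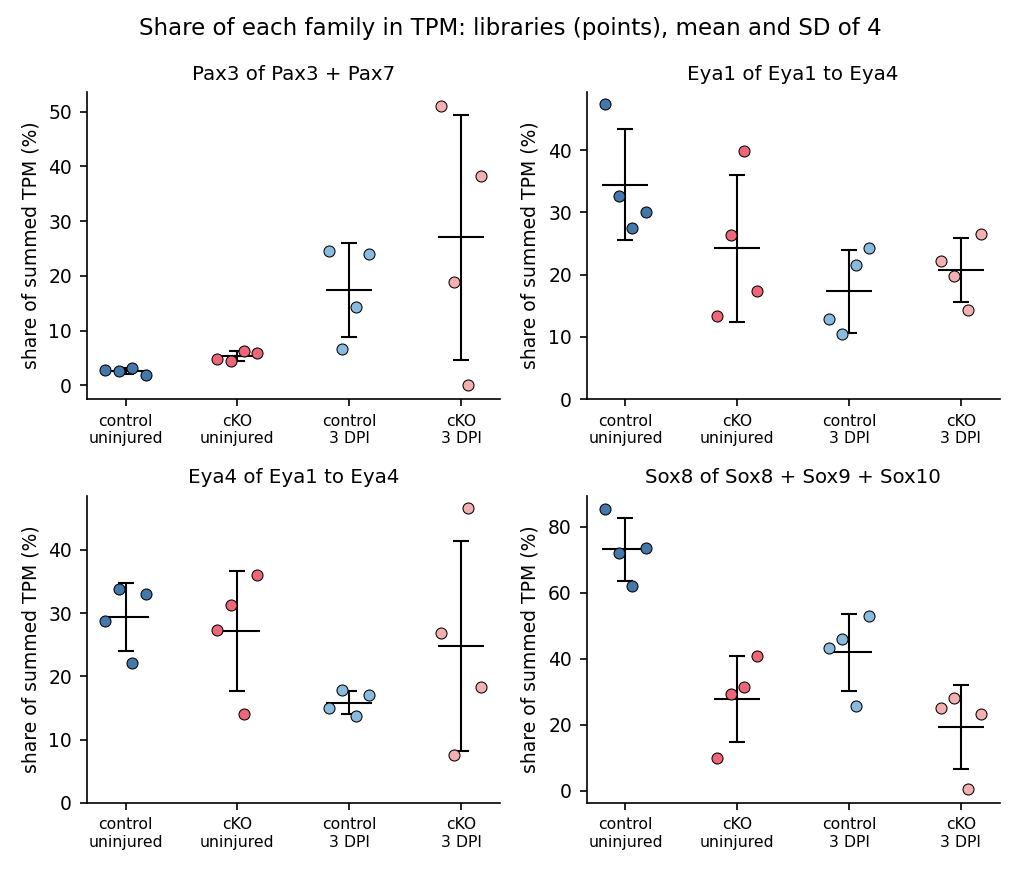
Shares of Pax3, Eya1, Eya4 and Sox8 in the summed TPM of their closest relatives (vertical axis, %), with 1 point for each of 4 libraries in each group and the mean and SD. The Sox8 share is 62.0 to 85.3% in uninjured control and at most 52.9% in every library of the other groups.

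Among 18 other PAX, sine oculis, EYA, DACH and SoxE genes, 14 were tested in uninjured muscle and none was called between genotypes, nor were any of the 16 tested at 3 DPI. After injury in control MuSCs, 2 of 16 tested were called lower and 0 higher, beside 9.46% and 10.8% of all genes tested. In TRF2MuSC-cKO libraries 1 of 16 was called lower and 0 higher, beside 1.61% and 2.43%. Six2 was 1 of the 2 called lower in control, from 41.2 ± 12.1 to 9.59 ± 5.97 CPM (log2 fold change -2.09, SE 0.41, adjusted p = 7.0e-05, edgeR quasi-likelihood test). Six5 (-0.67), Eya2 (log2 fold change 0.08) and Eya3 (0.43) were not called after injury in control MuSCs. The estimate of Six4 in the same comparison was -0.13, and its difference from that of Six2 was not tested.

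Genes known as targets of PAX or sine oculis factors were listed with the results of these data known. Of 16 tested in uninjured muscle, 7 were called lower in TRF2MuSC-cKO MuSCs, beside 2.63% of all genes tested, and none higher. Among these were Myod1 (log2 fold change -1.14, SE 0.27) and Myog (-2.04, SE 0.44), the myogenic regulatory factors, Fgfr4 (-0.78, SE 0.19), a growth factor receptor downstream of PAX3, and Cdh15 (-0.94, SE 0.23), the M-cadherin of satellite cells. Itm2a (-1.28), Mdfic (-0.81) and Aldoa (-1.21) completed the 7. At 3 DPI none of the 15 tested was called between genotypes, and neither was any other of the 14559 genes tested. Of the 15 estimates 13 were below 0, with a median log2 fold change of -0.73 against -0.77 in uninjured muscle. In the lower direction 8 of the 15 did not overlap between genotypes, beside 5.75% of all genes tested, and 0 in the higher direction, beside 2.53%. The absence of calls at 3 DPI therefore does not show that the difference in these genes was gone. After injury in control MuSCs 8 of 15 were called lower and 3 higher, beside 9.46% and 10.8% of all genes tested, the former including Myf5 (-2.62, SE 0.22) and Fgfr4 (-2.76, SE 0.19), the latter being Id2, Ezr and Aldoa. In TRF2MuSC-cKO libraries 4 of 16 were called lower and 2 higher, beside 1.61% and 2.43%, with Fgfr4 at -4.17 (SE 0.56).

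Of 16 other progenitor transcription factors, Msc, which encodes the repressor musculin, was the only 1 of 15 tested that was called between genotypes in uninjured muscle (log2 fold change -1.44, SE 0.32, adjusted p = 0.00333, edgeR quasi-likelihood test). This stands beside 2.63% of all genes tested called lower. Msc also fell after injury in control MuSCs (-1.97), as did Dmrt2 and Sim2, while Mef2c rose (1.11), beside 9.46% of all genes called lower and 10.8% higher. Of 15 cofactors of PAX7 or sine oculis proteins, only Nedd4, a ubiquitin ligase known to act on PAX7, was called in uninjured muscle. It was lower in TRF2MuSC-cKO (-1.12, SE 0.20, adjusted p = 2.6e-04, edgeR), as were 2.63% of all genes tested. After injury in control MuSCs 5 of 15 were called lower (Kmt2a, Kmt2d, Nedd4, Sobp and Tle3), beside 9.46% of all genes tested, and none higher. Kmt2d, a histone methyltransferase, was called with a log2 fold change of -0.92 in control and -0.91 in TRF2MuSC-cKO MuSCs.

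For each member the most similar profiles were sought over the 16 libraries, as the lowest root mean square difference of log2 CPM after each gene was centred on its mean, among 16843 genes. Pax7 was nearest to Drp2 (0.43), Cebpd (0.55) and Peg3 (0.56), genes that ranged like Pax7 from a high mean in uninjured control (1170, 444 and 1880 CPM) to a low mean in the 3 DPI libraries labelled TRF2MuSC-cKO (81, 49 and 180 CPM). Sox8 was nearest to Tspan7 (0.61), Cyr61 (0.66) and Spats2l (0.69). The larger difference for Sox8 means that no gene followed it as closely as Drp2 followed Pax7. Eya1 was nearest to Rpl36a, Zfp317 and Cux1 (0.43 each), and Eya4 to Ndrg1 (0.33), Trip10 (0.36) and Pcdhga2 (0.38). Pax3 was nearest to Abcc10, Zfp39 and Mfsd7c (0.33 to 0.37), and Six4 to Slco3a1, Arsb and Pdzd4 (0.29 to 0.31). The Pax3 profile rests largely on the 3 DPI library that stood apart. Its log2 CPM was 1.09 there and 3.67 to 5.61 in the other libraries, and profiles were not compared without that library. The SD over the 16 libraries was 1.06 for Pax3 and only 0.49 for Six4, so a low difference from Six4 asks little of a gene. Between members the closest pair was Eya1 and Eya4 (0.81) and the most distant was Pax7 and Pax3 (1.74). The SD over the 16 libraries was 0.78 for Eya1 and 0.77 for Eya4, so this pair was no closer than either gene to a flat profile.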

How the data were processed

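RNA from sorted MuSCs was sequenced as CORALL total RNA libraries after removal of ribosomal RNA. Per the labels and methods, the authors trimmed reads (Trim Galore 0.6.7), aligned them to GRCm38 with STAR (2.6.1d in the submitters' processing notes) and quantified them with Salmon 1.5.2. They deposited estimated counts per gene, which are not normalized, and a second table of estimated counts rescaled from abundance. Here the estimated counts were rounded and passed through filterByExpr. Library scaling used TMM, and genes were tested in edgeR 4.0.16 (R 4.3.3) by the quasi-likelihood method with robust dispersions. The fit held the 8 libraries compared, or all 16 for the interaction, with Benjamini-Hochberg adjustment over all genes tested. TPM are the rescaled counts divided by the total of each library, on the usual TPM scale. Family shares were tested by exact permutation (SciPy 1.17.1).

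Groups and replicate numbers came from the sample titles. The lowest chi-square per degree of freedom between replicates was 2.97, so none was a repeat. The members and gene lists were chosen with earlier results of these data known. Named genes were the members, Terf2, listed genes that were called or related to the members (by example where many), and the 3 nearest profiles among genes whose log2 CPM averaged 3 or more. Some results of the gene lists and family shares are not reported here. Markers of 8 cell types were counted and summed. Olfactory receptor genes were added after seeing the data. Of the gene symbols, 95.8% matched GENCODE M21. On simulated counts the test recovered a smaller share of changes in the comparisons that hold the 3 DPI TRF2MuSC-cKO libraries than in the others. For a log2 change of 2 it recovered 13 to 19% there and 71 to 74% in the others. For a log2 change of 1 it recovered 0 to 3% there and 26 to 29% in the others. An absent call in those comparisons therefore does not show the absence of a change.

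Alternatives were limma 3.58.1 (robust fit and voom), DESeq2 1.42.0, median-of-ratios factors, unadjusted library size, other count filters (none, or 10 counts throughout), a joint fit of the 16 libraries, a replicate block, the rescaled table, an adjusted p under 0.05 with any fold, libraries of 1 description code, and leaving out each replicate.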

Additional observations from a re-analysis of the deposited data

Results flagged for a closer look

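In uninjured control MuSCs, Sox8 in replicate 1 (270 CPM) lay far from the other libraries, which were between 190 and 198 CPM. The gap was 0.897 of the range of the group, above Dixon's 95% limit for 4 libraries. This was the only flag among 44 groups of values tested, where chance flags about 1 in 20. Without that library Sox8 was still called lower in TRF2MuSC-cKO.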

How the results depend on the processing

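Of 618 alternative values for the members, 594 kept the direction and the side of the threshold. This count includes the main estimates read at an adjusted p under 0.05 with any fold, whose direction cannot change. It also includes the genotype comparison at 3 DPI and the interaction, where few genes of any kind were called under any alternative (at most 17 and 51 lower). The count is therefore not a measure of how robust the calls are. In the uninjured genotype comparison, where 1 member was called lower, limma's robust fit called 2 (Pax7 joined), the rescaled table called 0, and leaving out a replicate gave 1 to 2. Leaving out a replicate gave 214 to 488 lower genes in all, against 370, and the rescaled table gave 11. Higher genes, 82 in all, came to 40 without control replicate 2, 6 with the rescaled table and 190 with at least 10 counts in every library. The other changes concerned Eya1 in control MuSCs of code JH140 and 20 uncalled estimates near 0 that changed sign. For the genotype effect at 3 DPI, leaving out a replicate gave -0.02 to 0.49 for Eya1, -0.16 to 0.31 for Six4 and -0.73 to 0.07 for Pax3. Libraries of code JH133 gave 0.18 for Pax3, -0.2 for Six4 and 1.15 for Eya1, against 0.2 for Eya1 in all libraries. They also gave -0.55 for Sox8 and 0.22 for Eya4, against -1.13 and 0.62 in all libraries. For injury in control MuSCs, Six4 was 0.04 with library size alone, and Pax3 was -0.11 with limma-voom, -0.04 with a replicate block and -0.33 to 0.36 with a replicate left out. For the interaction, leaving out a replicate gave -0.58 to 0.15 for Pax7 and -0.5 to 0 for Six4. Among family shares, in percentage points, the Eya4 difference after injury in TRF2MuSC-cKO was 0.0698 with unscaled counts and -9.65 to 3.39 with a replicate left out, that of Eya1 was -7.16 to 1.69, and the Eya4 genotype difference in uninjured muscle was -5.19 to 2.13. The causes were not tested.

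Same-numbered replicates did not pair (correlations of -0.111 to 0.111), and the replicate block changed no call of a member, with Sox8 at -2.32 (adjusted p = 1.9e-04, edgeR) in uninjured muscle. In the injury comparison of TRF2MuSC-cKO, counts of all genes went from 235 lower and 354 higher to 144 and 220 with the block and to 513 and 803 without the library that stood apart. With all 16 libraries in 1 fit, 734 lower and 861 higher genes were called after injury in control, against 1452 and 1652. Library size alone moved the median of all genes from 0.06 to 0.24 between genotypes in uninjured muscle and from 0.07 to 0.23 after injury in control. Depth limits Pax3, with 74 to 117 counts summed over each group of 4 libraries, and Sox8 in the 3 DPI libraries labelled TRF2MuSC-cKO, with 73.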
